A study of Homo sapiens with 9 samples.

Results

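NAIP is the cytosolic sensor that starts one branch of inflammasome signalling, and its row in a gene count table of HCT8 cells is described here together with the rows of its partners NLRC4 and CASP1. The members were taken by name, and each name had 1 row, so they make up 3 of the 26008 rows. NAIP was chosen by its measured values in these 9 libraries, so every difference in its counts between the groups is treated as used by the choice. Its differences between groups are therefore described without a test. NLRC4 and CASP1 were set beside it because of their role.

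HCT8 is a long-established human cell line derived from a colorectal tumour of the ileocecal region. The cells were exposed for 5 h to membrane vesicles of Vibrio cholerae C6706, to membrane vesicles of Escherichia coli MC1061, or to no vesicles. The last group is labelled as having no treatment and its protocol names 20 mM Tris-HCl. Membrane vesicles are small particles that bacteria shed from their surface. Poly-A RNA was read as single 50 bp reads from 3 libraries in each group. No label says that the replicates were separate cultures, so the spread between them may be technical.

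In a cell, NAIP binds bacterial flagellin or parts of a type III secretion needle in the cytosol and then recruits NLRC4. NLRC4 molecules assemble into a wheel-shaped platform that brings CASP1, the protease caspase-1, into its active form. CASP1 cuts the cytokine precursors of IL1B and IL18 and the pore-forming protein GSDMD. In the intestine this pathway is known for the expulsion of infected epithelial cells.

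What a row named NAIP can measure is limited first by the sequence of the gene. In the GENCODE 29 annotation NAIP (ENSG00000249437.7) lies on the minus strand of chromosome 5, from 70968483 to 71025114 on GRCh38, and RefSeq lists 4 pseudogene copies of it, NAIPP1 to NAIPP4, on the same chromosome. Of the 9696 distinct 50-base windows in the 10 annotated NAIP transcripts, 4254 (43.9%) also occur in a transcript of another gene, and 4214 of these are in 4 chromosome 5 genes that overlap the RefSeq pseudogenes. The windows shared with AC140134.1 (at NAIPP2) number 3445, those with AC145138.1 (at NAIPP4) 2705, and those with AC139495.1 (at NAIPP3) and AC146944.2 (at NAIPP1) 1024 each. GENCODE 29 types AC140134.1 and AC145138.1 as unprocessed pseudogenes, on the minus strand as NAIP. Only AC139495.1 and AC146944.2 are typed as transcribed unprocessed pseudogenes, and both lie on the plus strand. Whether any of the copies is transcribed in HCT8 cells was not tested. None of these 4 gene names has a row of its own in the count table. By the same measure 0 of 3669 windows of NLRC4 are shared, and 180 of 4123 (4.37%) windows of CASP1 are, all of them with its neighbour CARD16 and 2 of them also with CARD17.

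Along the longest coding NAIP transcript (NAIP-208, 6124 nt in 17 exons) the sharing is not even. Of its 4160 windows that are wholly coding, 3492 (83.9%) are shared, in 1 run from nt 960 to the end of the coding part. The other 668 cover the first 717 coding nt. Windows from the coding exons, read from the GENCODE 29 transcripts on GRCh38, show what a read of this length can and cannot tell apart. The first is unshared and holds the start codon (exon 4, chr5:71012866-71012915, minus strand). The second is found letter for letter in all 4 copies (exon 6, chr5:71003808-71003857, minus strand). The last pair is NAIP (exon 12, chr5:70985421-70985470, minus strand) and its copy AC140134.1, with the single base that differs in capitals (G25A, counted from the 5′ end of the window). The NAIP version of that window also occurs in AC145138.1.
NAIP, unshared: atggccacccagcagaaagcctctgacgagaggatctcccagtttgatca
NAIP, shared with 4 copies: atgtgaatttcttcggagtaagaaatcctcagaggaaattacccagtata
NAIP, exon 12: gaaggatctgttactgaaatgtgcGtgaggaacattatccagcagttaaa
AC140134.1: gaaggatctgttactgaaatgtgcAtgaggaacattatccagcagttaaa
A 50-base read identical to either of the middle lines cannot be assigned to NAIP by its letters. How the authors counted reads with several places in the genome is not given here. The windows were taken from GRCh38 transcripts, while the deposited counts were made on hg19.

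**Figure D1:**
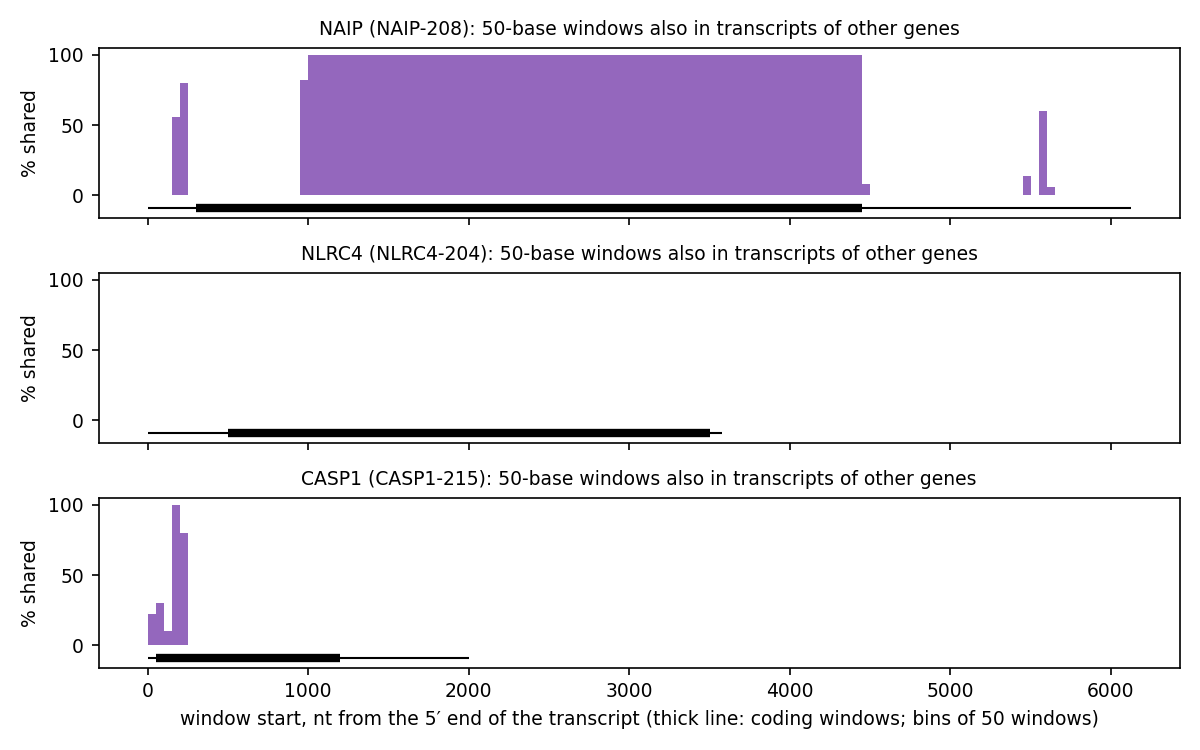
Percent of 50-base windows that also occur in transcripts of other genes (y axis, bins of 50 windows) against the window's distance in nt from the 5′ end (x axis), for the longest coding transcript of NAIP, NLRC4 and CASP1. Sharing covers most of the coding part of NAIP (83.9% of coding windows), none of NLRC4 and only the 5′ part of CASP1.

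The second limit is the strand. Of the 23322 rows matched to a GENCODE 29 gene, 32.3% share exon sequence with a gene of the opposite strand. They hold 85.4% of all counts in matched rows. The median row with such an overlap had 17 counts over the 9 libraries and the median row without one had 1. GAPDH, a glycolysis enzyme that every cell uses, had 33 to 63 counts per library. ACTB, the cytoskeletal actin, had 21 to 34. Counts in this table may therefore lie on the strand opposite the named gene, and no source used here states the strand setting. None of NAIP, NLRC4 and CASP1 has an exon that overlaps one on the other strand in this annotation, and the 3 models carry 9513, 3624 and 3698 nt of exon.

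NAIP stands high among the rows of that kind. Its 515 counts over the 9 libraries put it at rank 102 of the 15796 matched rows without an opposite-strand exon, above 99.4% of them, and its CPM per kb of exon at rank 498. NLRC4 (161 counts) was at rank 535 by counts and 597 per kb. Around NAIP, GENCODE 29 has the next coding gene on the other strand ending 14541 nt beyond the 3′ end, and RefSeq lists a non-coding RNA, LOC112267942, inside the NAIP gene, without a strand in the table used. Around NLRC4 (ENSG00000091106.18, chromosome 2, 32224453 to 32265854, minus strand), the zinc transporter gene SLC30A6 runs toward it and ends 74 nt from its 3′ end, and the SLC30A6 row had 121 counts. CASP1 (ENSG00000137752.23, chromosome 11, 105025443 to 105035250, minus strand) lies between CASP5 and CARD16, and the rows of both had 0 counts. The neighbours of NAIP in its duplicated region had few counts. The TFIIH subunit gene GTF2H2 had 35 counts in all, its copy GTF2H2B 56 and the tight-junction gene OCLN 75. Farther out, MARVELD2 had 27, BDP1 21, MCCC2 33 and RAD17 217. Whether the NAIP row counts NAIP's own transcript, a copy or RNA of the other strand was not tested.

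The libraries held 363557 to 733412 counts, and 3 counts were worth 3.88 to 9.07 CPM on the scale used here. CPM are counts per 1000000 of the library's counts in tested rows, times its TMM factor. Replicate 3 stood apart from replicates 1 and 2 in all groups. Between replicates 1 and 2 of the V. cholerae group the chi-square per degree of freedom was 1.05, close to sampling noise. It was 1.33 in controls and 1.90 with E. coli vesicles, and between either of these replicates and replicate 3 it was 4.78 to 8.76 over the 3 groups. The share of counts in rows without an opposite-strand exon was 14.1% to 14.3% for replicate 3, against 10.8% to 11.7% for the others. As for the cell type, all 8 epithelial marker rows had counts, with KRT20 lowest at 2 and most counts in KRT8, whose exons overlap KRT18. Of 9 myeloid marker rows, 5 (PTPRC, ITGAM, FCGR3A, CD163 and SPI1) had 0 counts in every library. CSF1R had 8 counts in all. CD68 (375), LYZ (142) and CD14 (95) each had more than the epithelial row EPCAM (90), though fewer than KRT18 (655). The exons of CD68 and LYZ overlap a gene of the opposite strand, as do those of the epithelial rows KRT8, KRT18, CDH1 and VIL1. Among the marker rows without such an overlap, CD14 had more counts than EPCAM, KRT19 (76), CDX2 (44) and KRT20.

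The NAIP row was highest and least variable with E. coli vesicles. Control replicates 1, 2 and 3 had 22, 21 and 66 counts (66.5, 57.6 and 131 CPM). With V. cholerae vesicles the counts were 20, 39 and 142, or 58.2, 114 and 184 CPM. With E. coli vesicles they were 54, 67 and 84, or 156, 193 and 186 CPM. On this scale all 3 E. coli libraries lay above all 3 controls, while the V. cholerae libraries spread from the control range into the E. coli range. Controls averaged 85.2 ± 40.3 CPM, cells given V. cholerae vesicles 119 ± 62.8 and cells given E. coli vesicles 179 ± 19.8 (SD, n = 3). In that order only control and E. coli vesicles are separated by more than their spread. Without TMM scaling, on the plain library totals, controls had 60.5, 52.3 and 138 CPM, V. cholerae libraries 52.9, 104 and 194, and E. coli libraries 136, 165 and 197. On that scale control replicate 3 (138) lay just above E. coli replicate 1 (136), so the groups overlapped. A lower count here cannot tell fewer cells with the transcript from less RNA per cell.

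**Figure D2:**
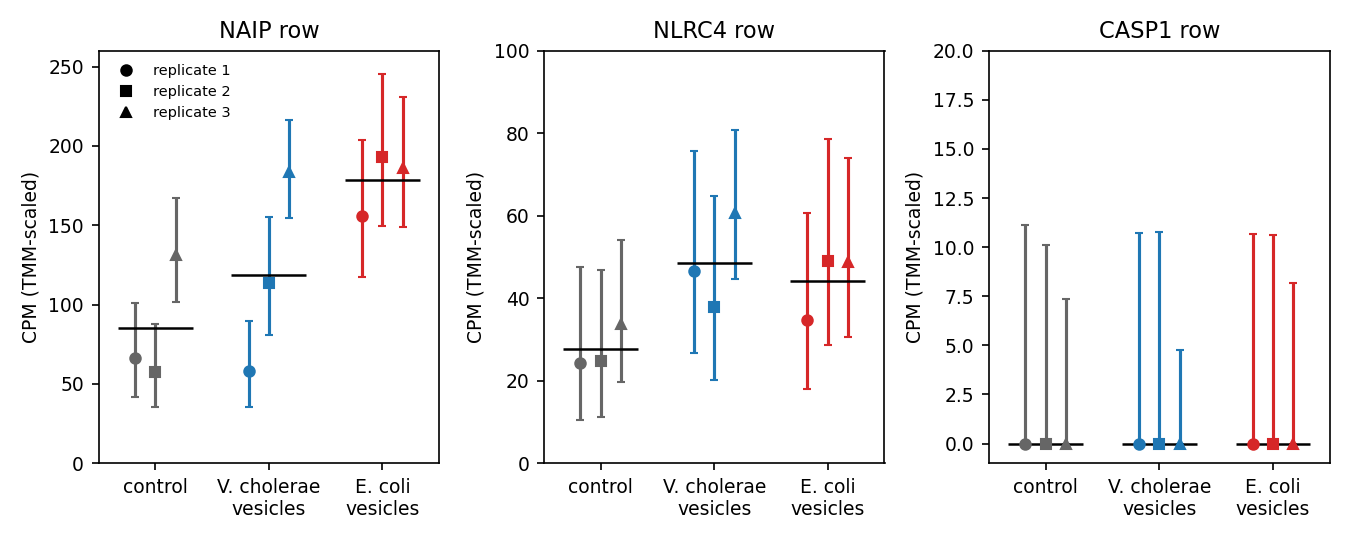
CPM after TMM scaling (y axis) of the NAIP, NLRC4 and CASP1 rows in the 9 libraries by group (x axis), each symbol 1 library, bars its 95% Poisson interval (counting error only) and lines the group means. NAIP runs from 57.6 to 193 CPM with the E. coli libraries above all controls, NLRC4 is above every control in both vesicle groups on this scale, and CASP1 is at 0 in every library.

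The fitted log2 fold change of NAIP was 1.04 ± 0.38 (SE) with E. coli vesicles against control, a 2.06-fold difference. With V. cholerae vesicles against control it was 0.49 ± 0.39. V. cholerae against E. coli vesicles gave -0.55 ± 0.37. These are sizes and not tests. With the replicate number as a block the 3 values were 1.11 ± 0.27, 0.47 ± 0.27 and -0.64 ± 0.26. In the blocked fit NAIP was 1 of 54 rows called higher with E. coli vesicles, 1.47% of the 3679 rows tested. The choice of the row used these values, so nothing is read from the call, and without the block NAIP was not among the 7 rows called there (0.19%, all higher). The direction of the calls there was not stable: DESeq2 called 13 rows higher and 22 lower, and the fit without E. coli replicate 3 called 79 higher and 157 lower. With V. cholerae vesicles NAIP was not called. That comparison called 0.0272% of rows higher and 0.0272% lower without the block, and 0.272% higher and 0.0815% lower with it. The blocked share called lower with E. coli vesicles was 0.815%. The comparisons share the control libraries.

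Set library by library against the control of the same number, E. coli vesicles gave 2.35, 3.36 and 1.42 times the control CPM in replicates 1, 2 and 3. V. cholerae vesicles gave 0.876, 1.97 and 1.40 times. All 3 E. coli ratios were above 1, and the V. cholerae ratio was below 1 in replicate 1. The direct ratio of V. cholerae to E. coli vesicles was 0.373, 0.588 and 0.985, so the libraries of replicate 3 were nearly level. Scaling on rows without an opposite-strand exon in place of all counts left these ratios close, at 2.22, 3.34 and 1.40 for E. coli and 0.852, 1.95 and 1.39 for V. cholerae vesicles. The data do not show that replicates 1 and 2 pair by number, and another pairing would give other ratios.

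Replicate 3 decides much of the NAIP spread. Its NAIP CPM was 2.12 times the mean of replicates 1 and 2 in controls and 2.14 times with V. cholerae vesicles, but 1.07 times with E. coli vesicles. The median row tested without an opposite-strand exon had 1.24, 1.24 and 1.27 times in the 3 groups. Without V. cholerae replicate 3 the log2 fold change of V. cholerae vesicles against control was -0.01, without control replicate 3 it was 0.97, without V. cholerae replicate 1 it was 0.78 and without control replicate 2 it was 0.28. The direct contrast was -0.25 without V. cholerae replicate 1 and -1.05 without V. cholerae replicate 3. For E. coli vesicles it was 1.53 without control replicate 3 and 0.83 without control replicate 2. The part of replicate 3 in the level of this row was not tested beyond these values.

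**Figure D3:**
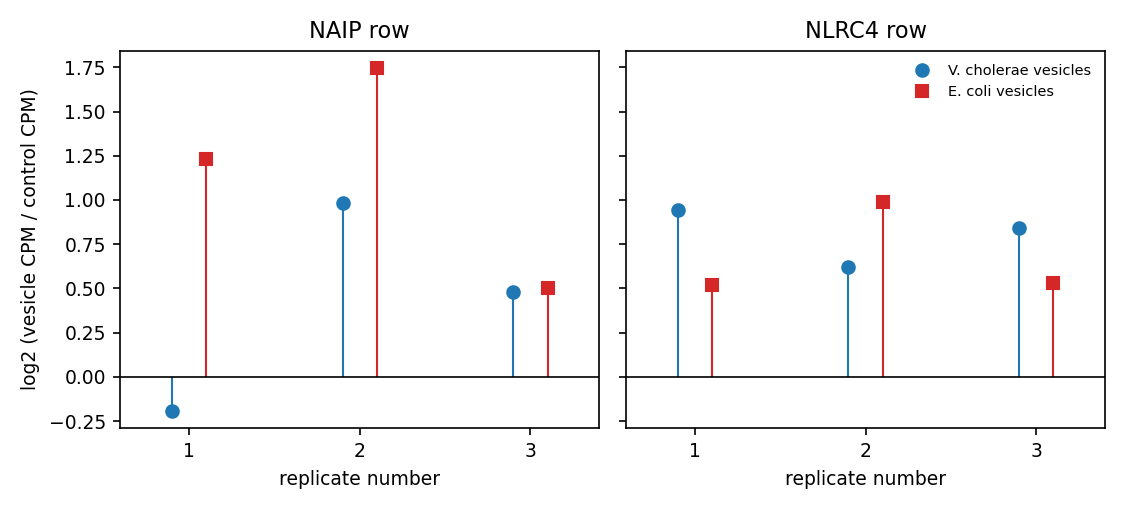
Log2 ratio of vesicle to control CPM (y axis) for libraries with the same replicate number (x axis), for NAIP and NLRC4, with 1 point per vesicle library. For NAIP the ratios differ between replicate numbers and 1 V. cholerae ratio is below 0, while for NLRC4 all 6 lie between 0.52 and 0.99.

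The NLRC4 row was low but ordered in a similar way against control. Controls had 8, 9 and 17 counts, or 24.2, 24.7 and 33.8 CPM. With V. cholerae vesicles there were 16, 13 and 47 counts, or 46.6, 37.9 and 60.8 CPM. With E. coli vesicles there were 12, 17 and 22 counts, or 34.7, 49.0 and 48.8 CPM. Neither vesicle group overlapped the controls, although E. coli replicate 1 (34.7 CPM) was next to control replicate 3 (33.8 CPM), and the Poisson intervals of the single libraries overlap widely. On the plain library totals control replicate 3 (35.6 CPM) lay above V. cholerae replicate 2 (34.7 CPM) and E. coli replicate 1 (30.3 CPM), so there both groups overlapped the controls. Means were 27.6 ± 5.44, 48.4 ± 11.5 and 44.2 ± 8.23 CPM (SD, n = 3) in that order, and the vesicle groups did not differ beyond their spread. The log2 fold change was 0.82 ± 0.36 with V. cholerae vesicles, 0.66 ± 0.37 with E. coli vesicles and 0.16 ± 0.34 between the vesicles. NLRC4 was not called in any of these by edgeR, with or without the replicate block.

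How near NAIP and NLRC4 were per length depended on the length used. In controls NAIP had 8.95 ± 4.24 and NLRC4 7.61 ± 1.5 CPM per kb of exon (SD, n = 3). The levels were 12.5 ± 6.60 and 13.4 ± 3.18 CPM per kb with V. cholerae vesicles, and 18.8 ± 2.09 and 12.2 ± 2.27 CPM per kb with E. coli vesicles. Only the last pair was apart by more than its spread. That length joins the exons of all annotated transcripts of a gene. Per kb of the longest coding transcript, NAIP had 13.9 ± 6.58 and NLRC4 7.70 ± 1.52 CPM in controls. The levels were 19.4 ± 10.3 and 13.5 ± 3.22 with V. cholerae vesicles, and 29.2 ± 3.24 and 12.3 ± 2.30 with E. coli vesicles. If only the 2.49 kb share of NAIP-208 that is unshared could have been counted, the NAIP level in controls would be 34.2 ± 16.2 CPM per kb, against 7.70 ± 1.52 for NLRC4-204. With V. cholerae vesicles that measure gave 47.6 ± 25.2 against 13.5 ± 3.22, and with E. coli vesicles 71.7 ± 7.96 against 12.3 ± 2.30. NAIP was above NLRC4 in controls on all of these measures, but by more than the spread of NAIP only on the last. GAPDH stood at 22.1 to 58.0 and ACTB at 9.55 to 27.3 CPM per kb of exon, so the NAIP row, at 6.05 to 20.3, overlapped the range of ACTB. The strand limit given above applies to the GAPDH and ACTB rows too. They are therefore no yardstick for the level of the NAIP transcript.

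The CASP1 row had 0 counts in all 9 libraries. A count of 0 allows up to 3 counts, which is 3.88 to 9.07 CPM in a single library and 0.789 CPM over all 9, counting error only. Rows of its family and locus were alike: CASP4 and CASP5, the caspases that bind bacterial lipopolysaccharide in the cytosol, and the decoys CARD16, CARD17 and CARD18 were all at 0. In a table where ACTB had 21 to 34 counts, a 0 does not show that the transcript was absent.

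Across the other genes of the pathway most rows were near 0. The 7 lists arranged by role (sensors of the NLR family, other inflammasome sensors, adaptors and caspases, regulators of caspase-1, gasdermins and cytokines, IAP proteins, and sensing of bacterial ligands) name 98 genes besides the 3 members. The table has rows for 95 of them, 38 with 0 counts in all libraries and 17 with enough counts to be tested. Of the 76 rows without an opposite-strand exon 36 were at 0 and the median total was 1 count. Of the 19 with such an exon 2 were at 0 and the median was 58 counts.

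**Figure D4:**
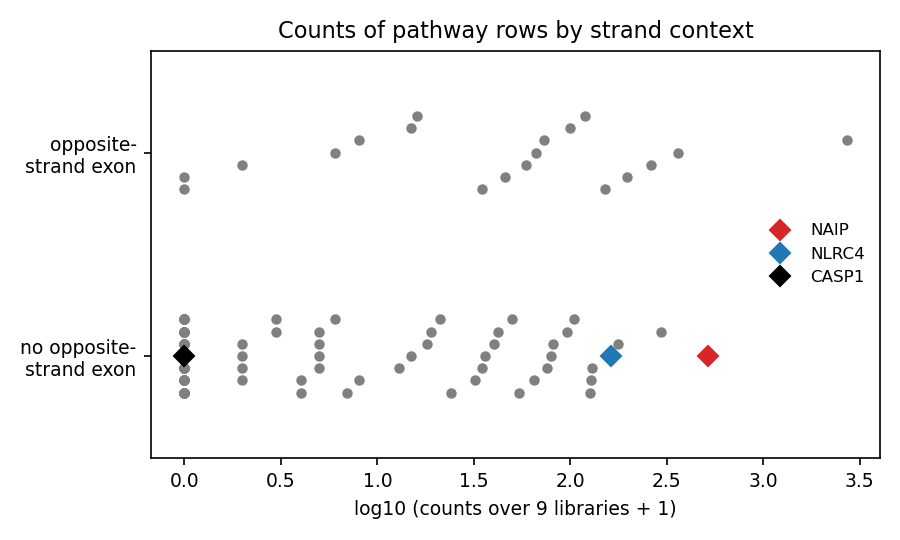
Total counts over the 9 libraries, as log10 of counts plus 1 (x axis), of the 95 pathway rows without or with an exon on the opposite strand (y axis), with NAIP, NLRC4 and CASP1 as diamonds. Among the rows without an opposite-strand exon NAIP, at 515 counts, lies above every pathway row, the next being XIAP at 293, and CASP1 is at 0 with 36 others.

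Within the NLR family, 10 of 21 rows had 0 counts, among them NLRP1, NOD2 (a sensor of bacterial cell wall fragments) and NLRC5. The NLRP3 row had 31 counts in all. NLRC3, whose exons lie opposite CLUAP1, had 359 counts and was at log2 0.16 ± 0.30 with V. cholerae and 0.12 ± 0.30 with E. coli vesicles. NLRP12 (154 counts) was at 0.27 ± 0.40 and 0.27 ± 0.41. NLRP9, opposite EPN1, was at -0.23 ± 0.54 and 0.59 ± 0.52, and NWD1 (104 counts) at -0.30 ± 0.49 and 0.19 ± 0.48. Of the other sensors AIM2, which binds cytosolic DNA, and IFI16 were at 0, and MEFV, the gene of pyrin, had 128 counts with -0.62 ± 0.38 and -0.52 ± 0.39.

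Downstream of the sensors, the adaptor PYCARD had 14 counts in all and CASP8, an apoptotic caspase, 127 (log2 -0.07 ± 0.40 and 0.16 ± 0.40). GSDMD, the pore-forming target of CASP1, had 4, 8 and 33 counts in controls, 7, 5 and 57 with V. cholerae vesicles and 11, 13 and 37 with E. coli vesicles, so replicate 3 had the most counts in every group, as it did for NAIP. GSDMD was at log2 0.19 ± 0.60 and 0.55 ± 0.61. The IL1B row was at 0 and the IL18 row had 17 counts. The row of IL18BP, a secreted inhibitor of IL18 whose exons lie opposite NUMA1, had 261 counts and was at log2 0.76 ± 0.37 with E. coli and -0.12 ± 0.38 with V. cholerae vesicles.

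NAIP also carries the BIR domains that define the IAP family. XIAP, the caspase inhibitor, was at -0.08 ± 0.37 with V. cholerae and -0.04 ± 0.38 with E. coli vesicles. BIRC6, opposite BIRC6-AS1, was at -0.58 ± 0.38 and -0.97 ± 0.40. HTRA2, a mitochondrial protease gene with exons opposite AUP1 and LOXL3, was the pathway row with the most counts (2700) and stood at -0.04 ± 0.23 and -0.01 ± 0.23. Among receptors of bacterial ligands TLR2, TLR4 and LY96 were at 0 and TLR5, the surface receptor of flagellin, had 1 count. TLR6 had 80 counts, 4 to 18 per library, and did not pass the count filter for the test. The signalling genes TIRAP (99 counts), IRAK4 (126) and TRAF6 (78) were at -0.22 ± 0.48, 0.39 ± 0.46 and -0.39 ± 0.51 with V. cholerae and at 0.18 ± 0.48, 0.39 ± 0.47 and -0.12 ± 0.51 with E. coli vesicles. IRF8, a transcription factor known to drive NAIP genes in mice, had 4 counts. IRF1, opposite C5orf56, was at 0.09 ± 0.40 and -0.26 ± 0.42.

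By edgeR's quasi-likelihood test none of the 17 tested pathway rows was called in any comparison, with or without the replicate block. DESeq2 called 0 too. This does not show that the rows were unchanged, as few rows of the whole table were called. At an unadjusted p under 0.05 there were 0 rows with V. cholerae vesicles, 1 with E. coli vesicles and 1 in the direct contrast. Of all rows tested 2.72%, 11.3% and 9.05% passed that mark in the same order. With the replicate block 0, 2 and 2 pathway rows passed it, against 7.88%, 19.8% and 17.3% of all rows. Over all 3679 rows the test called 0.0544% with V. cholerae and 0.19% with E. coli vesicles and 0 in the direct contrast, and with the block 0.353%, 2.28% and 0.0544%, so 0 of 17 is near this background. The median log2 fold change of the 17 rows was -0.08 with V. cholerae and 0.12 with E. coli vesicles, against 0.01 and -0.01 over all rows tested. Of the 17, 6 were above 0 with V. cholerae and 10 with E. coli vesicles. A fit of replicates 1 and 2 alone tested 3249 rows, 13 of them of the pathway, and called far more of the table. It called 11% of rows higher with E. coli vesicles than in controls, 13.1% higher with V. cholerae than with E. coli vesicles and 10.5% lower. In that fit IL18BP was higher with E. coli vesicles than in controls (log2 1.27 ± 0.31, edgeR adjusted p = 0.00254). Replicate 3, which it leaves out, ran the other way, with 62.1 CPM for E. coli vesicles and 75.7 CPM for control. IL18BP was lower with V. cholerae than with E. coli vesicles (-0.95 ± 0.29, adjusted p = 0.0172), and replicate 3 had the same direction (42.7 against 62.1 CPM). CD14, the lipopolysaccharide co-receptor, was higher with V. cholerae than with E. coli vesicles in that fit (1.52 ± 0.52, adjusted p = 0.0331), but not in replicate 3 (18.1 against 22.2 CPM). With 1 or 2 of 13 rows called in a comparison, these counts are near the share of the whole table.

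**Figure D5:**
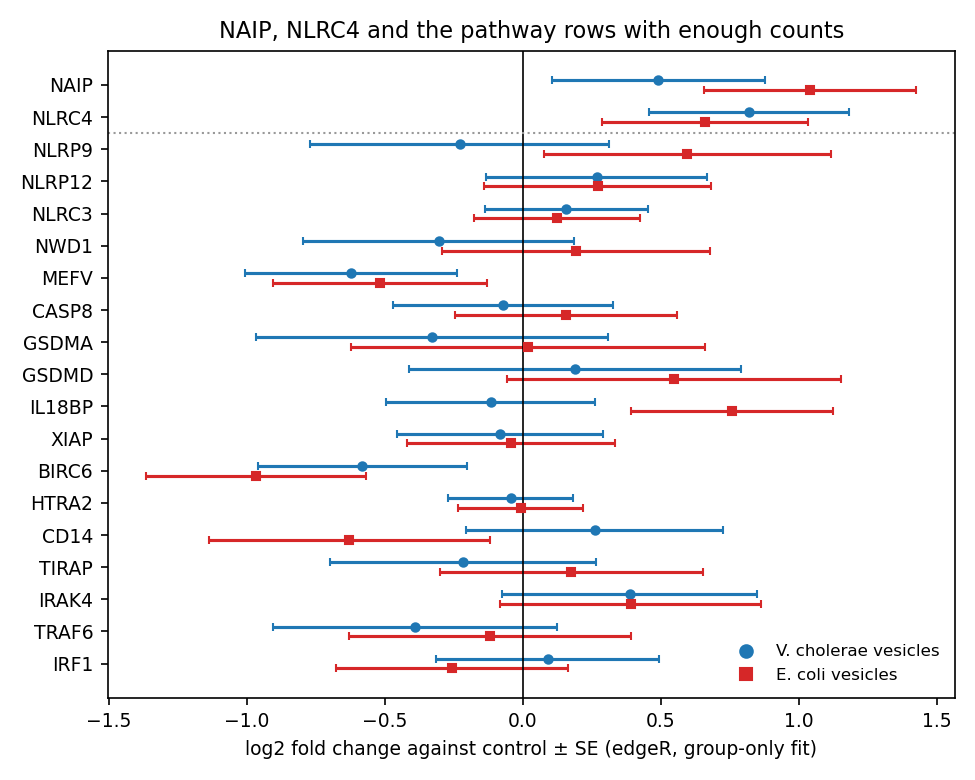
Log2 fold change against control with its SE (x axis, fit by group) for NAIP and NLRC4 above the dotted line and the 17 tested pathway rows below it (y axis), circles for V. cholerae and squares for E. coli vesicles. NAIP and NLRC4 lie above 0 for both vesicles, between 0.49 and 1.04, and the pathway rows lie on both sides of 0.

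Myeloid cells are known for high NAIP and NLRC4, so their markers were summed beside the row. The 9 marker rows together came to 148 to 181 CPM in controls, 102 to 156 CPM with V. cholerae and 176 to 202 CPM with E. coli vesicles, nearly all of it in CD68, LYZ and CD14. The CD68 and LYZ rows have an opposite-strand exon, so their counts carry the strand limit given above. PTPRC, the leukocyte antigen CD45, and SPI1, the myeloid transcription factor, were at 0 throughout. The part of these rows in the NAIP values was not tested.

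Among the rows tested, those whose log2 CPM ran most like NAIP over the 9 libraries were ICMT (Pearson r = 0.959), RCN1 (0.957), CYB5D1 (0.952), SLC22A23 (0.931) and GNE (0.928). ICMT encodes a methyltransferase of prenylated proteins, RCN1 a calcium-binding protein of the endoplasmic reticulum and GNE an enzyme of sialic acid synthesis. RCN1 had 30, 26 and 79 counts in controls, 34, 38 and 160 with V. cholerae and 72, 85 and 108 with E. coli vesicles, so within each vesicle group its libraries had the order they had for NAIP. GNE has no opposite-strand exon, as NAIP, and had 8 to 39 counts per library. The 3 rows most opposed to NAIP were POLR2I (-0.969), MINK1 (-0.958) and SRCRB4D (-0.955). SRCRB4D had 82, 103 and 73 counts in controls, 80, 66 and 87 with V. cholerae and 42, 45 and 43 with E. coli vesicles. Within the 6 libraries of replicates 1 and 2 the r of these 8 rows was 0.916 to 0.974 and -0.982 to -0.953. Those 6 are among the 9 libraries on which the rows were picked, so these values are not a second test. NLRC4 had r = 0.649 with NAIP over 9 libraries and 0.516 over those 6, where the median of all rows over 9 libraries was 0.0462. These correlations are a description over libraries that share groups, depth and replicate number, picked as the extremes of 3679 rows.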

How the data were processed

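The authors deposited a table of raw counts, 26008 gene rows by 9 libraries, from single 50 bp reads. The submitters' processing notes list HTSeq 0.6.1, Cufflinks 2.2.1, TopHat2 2.0.12, SAMtools 0.1.19, Bowtie2 2.2.3 and FastQC, and the build hg19. Annotation, strand setting and treatment of multi-mapped reads: not given in the sources used. No column was left out.

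All libraries entered 1 edgeR 4.0.16 fit by group (R 4.3.3, filterByExpr with minimum count 10 and minimum total 15, TMM factors, robust quasi-likelihood test). Calls needed an adjusted p (Benjamini-Hochberg, all tested rows) under 0.05. Each SE was computed as the absolute log2 fold change over the root of F. Members, lists and alternatives were chosen with earlier results of these data known. The rows named are the members, pathway rows that were called, had a mean of at least 20 CPM or are well known and at 0, neighbours of NAIP, and the 5 rows most and 3 least correlated with NAIP (log2 CPM, prior count 2). A few pathway rows with low counts were named for their role after their values were seen. Some locus neighbours are not reported here.

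GENCODE 29 gene names were joined to the row names, and 50-base windows were compared between transcripts of different genes. Intervals are 95% and, like the floor of 3 counts, cover counting error only. Same-numbered libraries of different groups deviated together in all 9 pairs (correlations 0.115 to 0.677, threshold 0.1), against -0.497 to 0.350 for other numbers. Every negative value paired replicate 3 with replicate 1 or 2. Pairs of replicate 1 with replicate 2 had 0.133 to 0.350, and the same-numbered pairs of these replicates 0.115 to 0.328. The data thus set replicate 3 apart but do not show that replicates 1 and 2 pair by number, and no label states a pairing. Values with a replicate block are given beside results whose call it changes. Other alternatives were size factors by RLE, plain library size, an unfiltered fit, DESeq2 1.42.0, replicates 1 and 2 only, V. cholerae replicates 1 and 2 summed, and each library left out. Scaling on rows without an opposite-strand exon, and leaving out libraries with the block kept, were added after seeing the data.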

Additional observations from a re-analysis of the deposited data

How the results depend on the processing

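The NAIP log2 fold change with E. coli vesicles was above 0 in all 27 alternatives (0.83 to 1.53), that of V. cholerae against E. coli vesicles was below 0 in all 27 (-1.05 to -0.25), and that with V. cholerae vesicles was above 0 in 26 of 27 (-0.01 to 0.97, the lowest without V. cholerae replicate 3). The alternatives refit the libraries on whose values NAIP was chosen, and some leave out only a library that the contrast does not compare. These sign counts are therefore a description and no support. No fold change moved by more than the spread between single libraries (pooled SD 0.58 on the log2 scale). That mark is wider than the SE of the fold changes (0.37 to 0.39). Leaving out 1 library moved each of the 3 by more than its SE in at least 1 setting. With the replicate block and 1 library left out the ranges were 0.88 to 1.5, -1.02 to -0.41 and 0.19 to 0.69 in that order. Counts of rows called over the whole table were not stable either. Against 2 with V. cholerae vesicles there were 5 with no filter, 4 by DESeq2, 13 with the replicate block, 61 with replicates 1 and 2 only, 1 with V. cholerae replicates 1 and 2 summed, and 0 to 5 with 1 library left out. Against 7 with E. coli vesicles there were 40, 35, 84 and 793 in the first 4 of these settings and 3 to 236 with 1 library left out. All 7 were higher, but more rows were lower than higher with no filter (30 against 10), by DESeq2 (22 against 13), with replicates 1 and 2 only (434 against 359) and without E. coli replicate 3 (157 against 79). Against 0 in the direct contrast there were 31, 5, 2 and 766, and 0 to 204. The counts of 236 and 204 are those without E. coli replicate 3. With E. coli vesicles there were 3 without control replicate 2, 4 without control replicate 1 or E. coli replicate 1 or 2, and 11 without V. cholerae replicate 3. With V. cholerae vesicles there were 0 without V. cholerae replicate 2 and 0 without either of control replicates 1 and 2, 1 without V. cholerae replicate 1, 4 without E. coli replicate 3 and 5 without V. cholerae replicate 3. The direct contrast had 1 without control replicate 3. The cause was not tested. The count of pathway rows called, 0 in each comparison, became 1 with E. coli vesicles and 2 in the direct contrast with replicates 1 and 2 only and was 0 in the other alternatives run on it, the replicate block included. At 20 to 142 counts per library, NAIP is limited by counting error, and NLRC4, at 8 to 47, more so.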
